A study of Peromyscus maniculatus with 16 samples.

Results

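The genes followed here are those of the unfolded protein response (UPR) and the heat shock response in the liver of the deer mouse, Peromyscus maniculatus. They were 45 genes listed by symbol, of which 36 had a row among the 16910 genes of the count table. All 36 were among the 12639 genes that had at least 0.5 CPM (the count scaled to a common library size) in at least 1 animal and were tested. The other 9, Atf4, Atf3, Sec61b, Hspa1b, Hsp90aa1, Hsp90ab1, Dnaja1, Hspd1 and Hspe1, had no row under their symbol and were not analysed here. By role, 11 of the 36 genes were chaperones and cochaperones of the endoplasmic reticulum (ER). They are called the ER lumen genes below, although Canx encodes a protein of the ER membrane. The other genes included 6 sensors and transcription factors, and 4 output genes of the PERK, ATF4 and CHOP branch. There were also 9 genes of ER-associated degradation (ERAD), oxidation and translocation, 5 cytosolic heat shock genes and 1 mitochondrial chaperone.

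The ER of the hepatocyte folds the secreted proteins of plasma, and lipid overload is a known stress on that compartment. When unfolded proteins accumulate, the chaperone BiP (Hspa5) leaves the sensors IRE1 (Ern1), PERK (Eif2ak3) and ATF6. IRE1 splices the mRNA of the transcription factor XBP1, ATF6 is cleaved to an active factor, and PERK slows translation while ATF4 and CHOP (Ddit3) are made, so that chaperone and ERAD genes are transcribed. The heat shock response is the cytosolic counterpart, in which HSF1 drives transcription of HSP70, HSP110 and HSP40 genes. In the liver, XBP1 and CREB3L3 (CREBH) are also known as regulators of lipid metabolism.

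The liver RNA came from 16 deer mice, which were 10 months old after 28 weeks on their diet. Group C (n = 6) received regular chow, and the animals that received high fat diet (HFD) were divided by histology into group NS, without steatosis (n = 5), and group S, with steatosis (n = 5). The animals were outbred, carried no engineered allele, and belonged to the BW stock of P. maniculatus bairdii, a closed captive colony, except for 1 animal of the SM2 stock in each group (10876 in C, 10865 in NS and 10880 in S). All 6 C and 5 NS animals were male, whereas 3 of the 5 S animals were female (35955, 35982 and 35990), so that female sex occurred only together with steatosis. The groups NS and S were not assigned but were separated by the liver outcome itself.

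Total counts ranged from 4640733 (S 36016) to 11349971 (C 36001). The hepatocyte list, of which 7 of 9 genes were in the table, summed to 40220 to 72510 CPM in every animal. The tissue thus carried its defining markers, although Alb had no row. Animal S 36016 stood apart in the 7 stellate cell genes, at 2315 CPM against 157 to 502 CPM in the other 15, mostly through Col1a1 at 2058 CPM, and S 35990 was highest in the Kupffer cell list, at 961 CPM against 145 to 560 CPM. The comparisons below are given for all 16 animals, and where leaving out 1 animal ended a call on one of the 36 genes, that animal is named beside it.

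The first comparison asks how livers with steatosis differ from livers on chow. In S vs C, 3 of the 36 genes passed an adjusted p of 0.1 at any fold, and all 3 were lower in S. They were Sdf2l1, Creld2 and Dnajc3, and all belong to the ER lumen chaperones and cochaperones. Over all genes tested 10.8% were called by the same rule in either direction and 5.36% as lower, beside 8.33% (3 of 36) here. With 1 animal left out 1 to 6 of the 36 were called, 1 without C 35975 or C 36007 and 6 without C 35998 or NS 10865. None of the 36 reached the additional limit of a 2-fold change, which 4.06% of all genes did. At an unadjusted p under 0.05, edgeR's quasi-likelihood test gave 8 of 36 genes (22.2%), all with a negative log2 fold change, against 23.8% of all genes in either direction and 10.7% with a negative one. In liver tissue, fewer cells of a type and less RNA per cell cannot be told apart.

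The direction was uneven. The log2 fold change was negative in 26 of the 36 genes (72.2%) with a median of -0.21, whereas over all genes it was negative in 42.1% with a median of 0.10. All 11 ER lumen genes had a negative value, with a median of -0.49. In the cytosolic heat shock group 4 of 5 were negative (median -0.61), in the sensors 4 of 6 (median -0.05), in the PERK output 2 of 4 (median -0.22) and in the ERAD group 4 of 9 (median 0.18). These directions depended on the scaling. With total counts alone as the library size, which moved the median of all genes from 0.10 to 0.33, 16 of the 36 were negative (median 0.04), with 7 of 11 in the ER lumen group (median -0.24) and 4 of 5 in the cytosolic group (median -0.38). By that scaling 2 genes were called as lower, Sdf2l1 and Creld2, and 2 as higher, Atf6b and Ero1lb. There were 3 genes with groups that did not overlap, namely Sdf2l1, Dnajc3 and Dnajb9, with every S animal below every C animal, and 0 genes had the opposite order. Such a separation of S from C occurred in 4.19% of all genes tested in either direction, and in 2.33% with S lower.

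**Figure D1:**
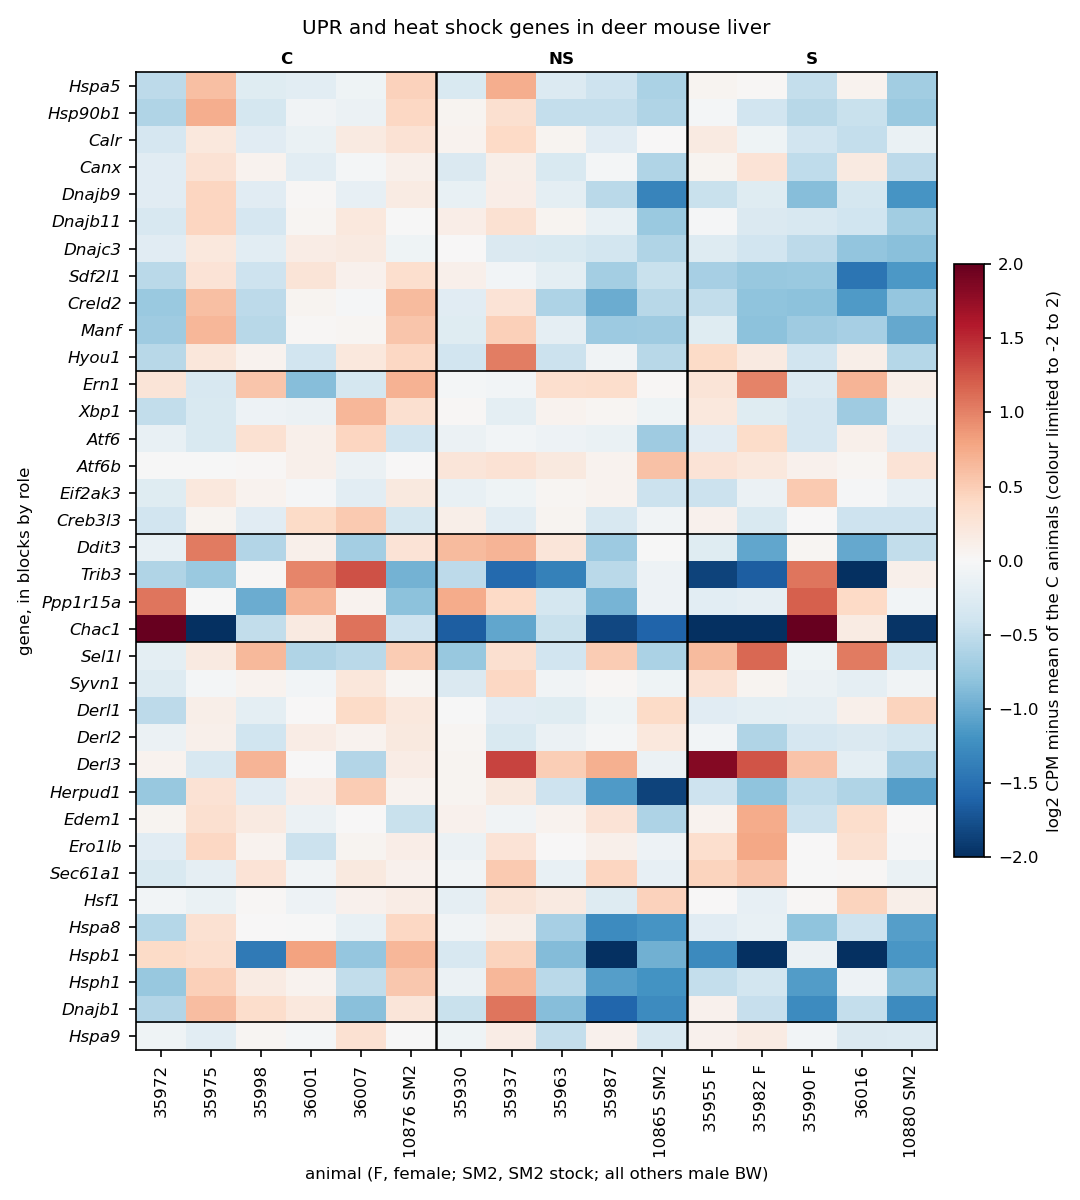
Each row is 1 of the 36 genes and each column 1 animal, and the colour is the log2 CPM minus the mean of the 6 C animals, with red for higher and blue for lower. Rows are in blocks by role (from the top: ER lumen, sensors, PERK output, ERAD, cytosolic heat shock, mitochondrial). With this normalization the ER lumen block is mostly blue in S, while C 35975, C 10876 and NS 35937 are red in both the ER lumen and the cytosolic heat shock blocks.

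Sdf2l1, an ER lumen protein that works with DNAJ cochaperones of BiP, had the smallest p of all 36 for S vs C. In C it ranged from 42.3 to 77.5 CPM with a median of 69.4. The NS animals had 38.3, 45.0, 53.9, 59.3 and 65.7 CPM, and the S animals had 22.2, 27.5, 36.3, 36.8 and 38.6 CPM. Every S animal was below every C animal, and the highest S animal exceeded only the lowest NS animal. The mean was 63.2 ± 15.3 CPM in C and 32.3 ± 7.11 CPM in S (SD, n = 6 and 5), with a log2 fold change of -0.97 ± 0.20 (SE, edgeR adjusted p = 0.0222). The lowest S values, 22.2 and 27.5 CPM, were those of the male animals 36016 and 10880. Among males alone the log2 fold change was -1.35 (adjusted p = 0.0247), and among BW animals alone it was -0.85 (adjusted p = 0.0487).

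Creld2, a secreted and ER-resident protein of the ATF6 programme, ranged from 48.5 to 126 CPM in C with a median of 82.2. It had 40.8, 52.7, 55.3, 69.1 and 98.1 CPM in NS, and 37.0, 45.9, 46.5, 47.6 and 57.7 CPM in S. All but 1 S animal lay below the lowest C animal, and the NS values overlapped with both groups. In S vs C the log2 fold change was -0.88 ± 0.26 (SE, edgeR adjusted p = 0.061). This call was lost without any 1 of 6 animals, C 10876, C 35975, C 36001, C 36007, S 35982 or S 36016, with adjusted p between 0.104 and 0.137, and also among BW animals alone (0.12), among males alone (0.151) and with sex as a covariate (0.116).

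Dnajc3, the BiP cochaperone P58IPK that restrains PERK, ranged from 251 to 341 CPM in C with a median of 302. The NS animals had 194, 228, 238, 242 and 297 CPM, and the S animals 165, 170.1, 204, 226 and 245 CPM. No S animal reached the lowest C animal, and 4 of the 5 NS animals were also below it. By edgeR the log2 fold change in S vs C was -0.55 ± 0.15 (SE, edgeR adjusted p = 0.0485). Without C 35975 or C 36007 the adjusted p became 0.109 or 0.107, and with total counts as the library size it was 0.125.

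Dnajb9 (ERdj4), a DNAJ protein induced through IRE1 and XBP1 that returns BiP to IRE1, ranged from 45.7 to 71.9 CPM in C with a median of 51.2. It had 21.3, 36.6, 46.7, 48.1 and 58.6 CPM in NS, and 23.4, 29.5, 39.2, 41.7 and 45.4 CPM in S. The S and C ranges were separated by less than 1 CPM, and in NS and S the SM2 animals 10865 and 10880 were the lowest. The log2 fold change in S vs C was -0.60 ± 0.23 (SE) and the edgeR adjusted p was 0.126, which passed the limit without NS 10865 (0.0683) and ranged from 0.115 to 0.247 without any other 1 animal. Manf, a secreted ER stress factor, had a log2 fold change of -0.75 ± 0.27 (SE) with an adjusted p of 0.102 in the same test.

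Hspa5, which encodes BiP, the main ER HSP70 and the standard readout of the UPR, ranged from 812 to 1765 CPM in C with a median of 1052. In NS it had 749.7, 874, 946, 959 and 1933 CPM, and in S 719.5, 838, 1183, 1204 and 1221 CPM. The groups overlapped throughout, and the highest animal was NS 35937. The log2 fold change in S vs C was -0.23 with a 95% interval from -0.77 to 0.31 (adjusted p = 0.617), and with total counts as the library size its sign turned (0.0173). The other ER lumen genes without a call were Hsp90b1 (GRP94), Calr, Canx, Dnajb11 and Hyou1, with log2 fold changes between -0.49 and -0.05.

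**Figure D2:**
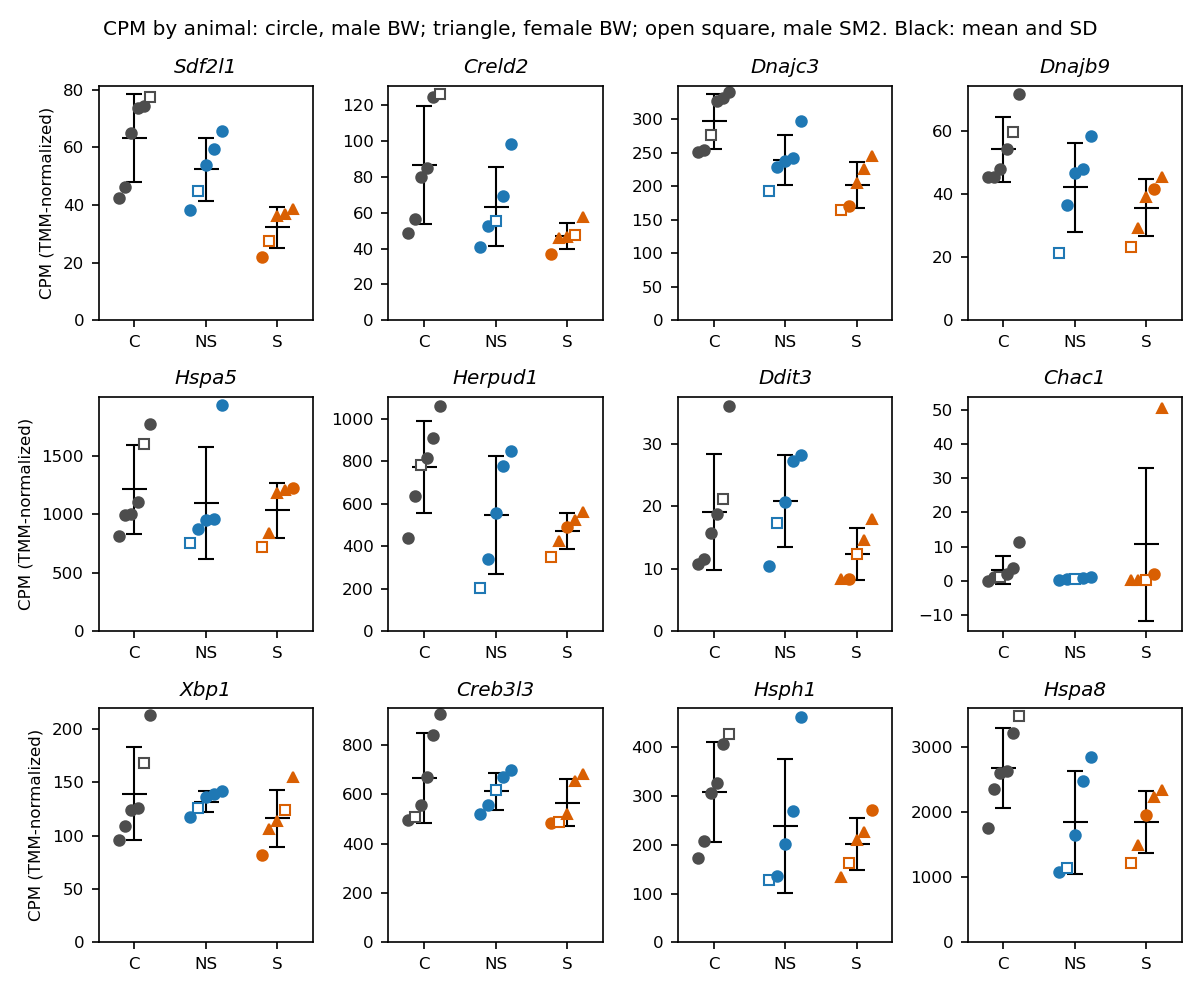
Each panel gives the TMM-normalized CPM of 1 gene by animal in groups C, NS and S, on a linear axis, with the black mark and bar giving the mean and SD. Circles are male BW animals, triangles female BW animals and open squares male SM2 animals. All S symbols of Sdf2l1, Dnajc3 and Dnajb9 lie below all C symbols, whereas the Chac1 mean in S is set by the single animal at 50.7 CPM.

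None of the 6 sensors and transcription factors was called in S vs C. Xbp1, the IRE1 target, ranged from 95.6 to 213 CPM in C with a median of 125. The NS animals had 117, 126, 136, 138 and 141 CPM, and the S animals had 82.2, 106, 114, 124 and 155 CPM. The groups overlapped, and the log2 fold change in S vs C was -0.26 (95% interval -0.67 to 0.15, adjusted p = 0.43). Gene counts do not separate spliced from unspliced Xbp1. Creb3l3, a liver ER-tethered factor that regulates lipid and acute phase genes, ranged from 496 to 926 CPM in C with a median of 612. It had 519.6, 555, 618, 668 and 697 CPM in NS, and 485, 486, 520.1, 652 and 682 CPM in S. No group stood apart, and the log2 fold change was -0.24 (95% interval -0.61 to 0.14, adjusted p = 0.439), with the opposite sign on total counts (0.0159). Ern1, Atf6, Atf6b and Eif2ak3 had log2 fold changes of 0.32, -0.08, 0.18 and -0.02.

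The genes downstream of PERK and CHOP varied widely between animals. Ddit3 (CHOP), the proapoptotic factor, ranged from 10.8 to 36.1 CPM in C with a median of 17.3. It had 10.47, 17.3, 20.7, 27.3 and 28.2 CPM in NS, and 8.34, 8.45, 12.3, 14.7 and 17.9 CPM in S. Of the S animals 3 lay within the C range and 2 below it, and the log2 fold change in S vs C was -0.61 (95% interval -1.29 to 0.07, adjusted p = 0.255). Trib3, a pseudokinase induced by CHOP, had a log2 fold change of -0.59 with an SE of 0.58, and Ppp1r15a (GADD34), which restores translation, had 0.16 with an SE of 0.38. Chac1, which degrades glutathione, ranged from 0 to 11.3 CPM in C with a median of 1.54. It had 0.296, 0.364, 0.378, 0.678 and 1.15 CPM in NS, and 0.174, 0.185, 0.244, 1.88 and 50.7 CPM in S. The value of 50.7 CPM was that of S 35990, a female animal that also had the highest S values of Trib3, Ppp1r15a and Ddit3.

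In the ERAD, oxidation and translocation group, 0 of 9 genes were called in S vs C by edgeR, with 2 at an unadjusted p under 0.05. Those were Herpud1, a membrane component of the ERAD complex, and Derl2, a dislocation channel protein. Herpud1 ranged from 441 to 1060 CPM in C with a median of 800.2. The NS animals had 206, 339, 558, 779 and 851 CPM, and the S animals had 349, 427, 492, 525 and 561 CPM. Only the lowest C animal fell within the S range, and the NS values spanned both. In S vs C it had a log2 fold change of -0.72 (95% interval -1.36 to -0.08, adjusted p = 0.165), and the adjusted p was 0.0879 without NS 10865. Derl2 had -0.34 with an adjusted p of 0.147. The positive values in this group were Derl3 (0.81), Sel1l (0.51), Ero1lb (0.29), Sec61a1 (0.19) and Edem1 (0.18), with adjusted p between 0.212 and 0.611, and Derl1 and Syvn1 had -0.02 and -0.00172.

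Of the 5 cytosolic heat shock genes 0 were called in S vs C by edgeR, and Hspb1 alone had an unadjusted p under 0.05. Hsph1 (HSP110), the nucleotide exchange factor of HSP70 and the readout chosen for this response, ranged from 172 to 426 CPM in C with a median of 316. It had 127, 136, 201 and 269 CPM in 4 NS animals and 462 CPM in NS 35937, and 135, 164, 209, 225 and 271 CPM in S. Groups C and S overlapped between 172 and 271 CPM, and the widest spread was within NS. The log2 fold change in S vs C was -0.61 (95% interval -1.29 to 0.06, adjusted p = 0.249). For Dnajb1 (HSP40), Hspa8 (HSC70) and Hsf1, the regulator itself, the log2 fold changes were -0.67, -0.53 and 0.10. Hspb1 (HSP27) had -1.43 with an adjusted p of 0.147, but rested on 4 to 78 counts per animal. Hspa9 (mortalin), the single mitochondrial chaperone, had -0.07.

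**Figure D3:**
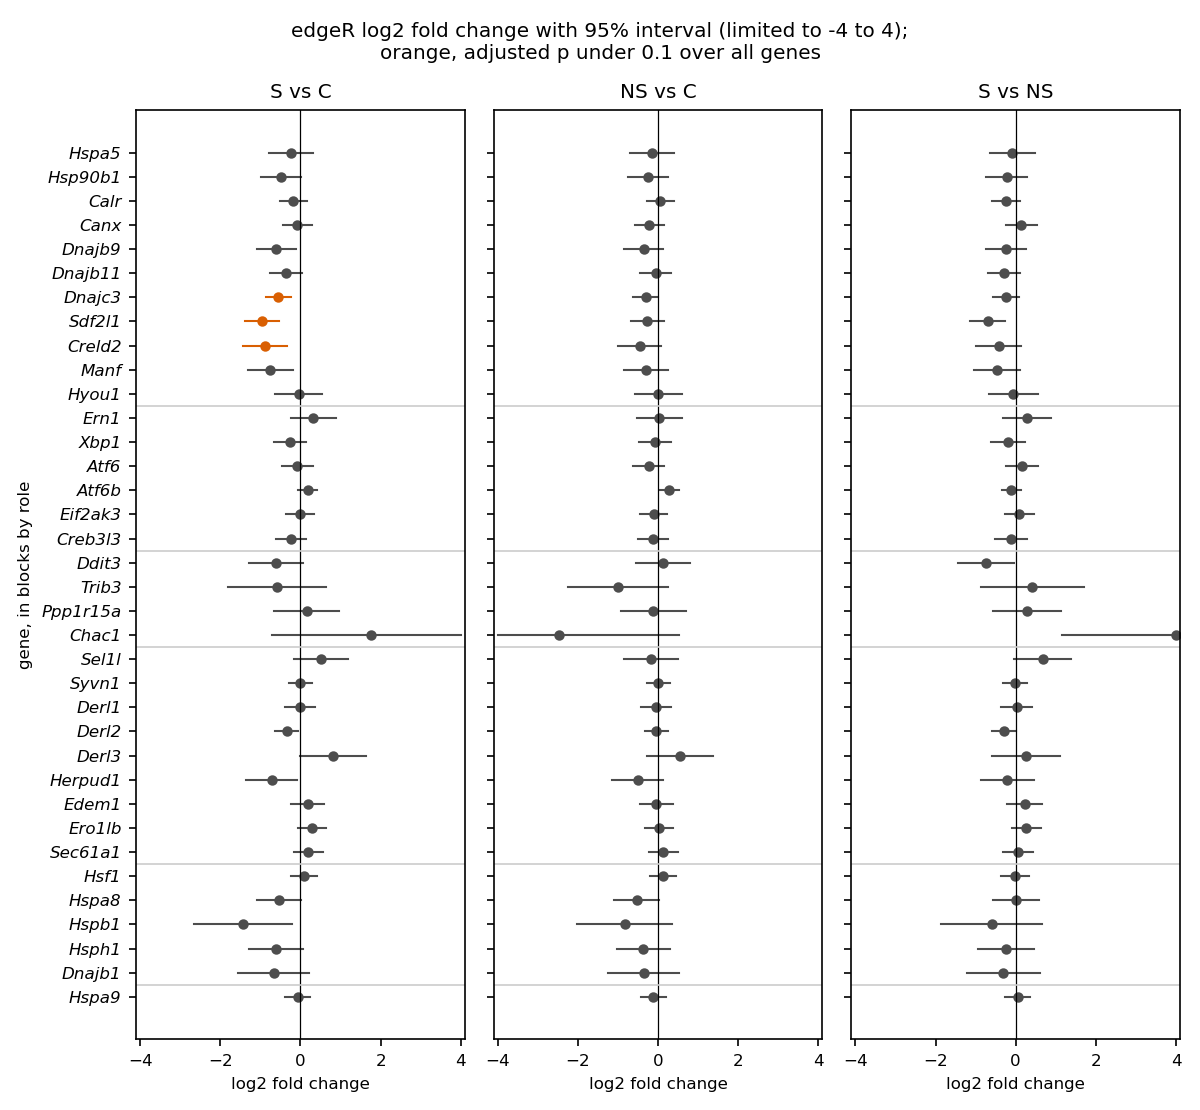
Points are edgeR log2 fold changes of the 36 genes with 95% intervals, in panels for S vs C, for NS vs C and for S vs NS, where negative values mean lower in the first group, and the axes are limited to -4 to 4. The 3 orange points, Dnajc3, Sdf2l1 and Creld2 in S vs C, had an adjusted p under 0.1, and no gene in the other comparisons did.

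The next question was whether HFD without steatosis was accompanied by the same differences. In NS vs C, edgeR called 0 of the 36 genes by either rule, with 1 gene (2.78%) at an unadjusted p under 0.05 against 8.29% of all genes, while 0.0791% of all genes were called at any fold and 0.0712% at 2-fold. The 3 smallest unadjusted p belonged to Atf6b, Dnajc3 and Hspa8. Atf6b, a paralog of ATF6, had 47.4 to 54.8 CPM in C (median 51.2), 53.6, 58.5, 60.5, 62.4 and 77.2 CPM in NS and 52.4, 54.2, 59.3, 61.7 and 61.9 CPM in S. Only 1 NS animal lay within the C range, and the log2 fold change was 0.28 ± 0.11 (SE, edgeR unadjusted p = 0.0183, adjusted p = 0.525). Dnajc3 had -0.31 ± 0.15 (SE, unadjusted p = 0.052, adjusted p = 0.598). Hspa8, the constitutive cytosolic HSP70, had 1755 to 3477 CPM in C (median 2621), 1088, 1148, 1650.0, 2484 and 2844 CPM in NS and 1221, 1496, 1956, 2228 and 2346 CPM in S. Its NS animals fell into a lower 3 and a higher 2, and the log2 fold change in NS vs C was -0.54 ± 0.26 (SE, unadjusted p = 0.0567, adjusted p = 0.614). The 36 genes were negative in 26 cases with a median of -0.12, against 0.01 over all genes. The C animals are shared with the S vs C comparison, so the directions of these comparisons are not independent. No gene separated the groups without overlap, as 0.989% of all genes did.

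Steatosis itself, at the same diet, was compared in S vs NS, which is also the test of whether the S and NS differences from C were unequal. By edgeR 0 of the 36 genes were called by either rule, where 0.00791% of all genes were called at any fold and at 2-fold alike, and 3 of the 36 (8.33%) had an unadjusted p under 0.05, against 10.9% of all genes. Sdf2l1 was one of them, with a log2 fold change of -0.70 ± 0.21 (SE, unadjusted p = 0.00377, adjusted p = 0.299). With sex as a covariate, where only the 2 male S animals bear on the contrast, it was -1.07 with an adjusted p of 0.0761, and among males alone the adjusted p was 0.126. Chac1 had 4.22 ± 1.46 (SE, unadjusted p = 0.00949, adjusted p = 0.344), which became 0.0142 when S 35990 was left out. Ddit3 had -0.74 ± 0.34 (SE, unadjusted p = 0.0416, adjusted p = 0.436), the opposite sign to Chac1. No gene separated NS from S without overlap, against 1.18% of all genes.

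When the mean of NS and S was set against C, 1 of the 36 genes was called at any fold and 0 at 2-fold, while 2.67% and 0.894% of all genes were. That gene was Sdf2l1, with a log2 fold change of -0.62 ± 0.17 (SE, edgeR adjusted p = 0.0869). Leaving out any 1 of 10 animals ended this call, with adjusted p from 0.105 to 0.195 (C 10876, C 35975, C 36001, C 36007, NS 10865, NS 35937, NS 35963, NS 35987, S 10880 and S 35982), and so did BW animals alone (adjusted p = 0.198).

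Stock was tested with group in the same fit, on 3 SM2 and 13 BW animals, and 21.8% of all genes were called. Of the 36 genes 3 were called (8.33%), with Derl1 higher in SM2 (log2 fold change 0.44 ± 0.15, SE, edgeR adjusted p = 0.054) and with Edem1 (-0.49 ± 0.19, adjusted p = 0.0898), a lectin of ERAD, and Atf6 (-0.43 ± 0.17, adjusted p = 0.0938) lower. Derl1, a dislocation channel protein, had 131 CPM in C 10876, 147 CPM in NS 10865 and 155 CPM in S 10880, the last 2 being the highest of their groups, while C 10876 lay within the C range of 78.7 to 147 CPM. The Edem1 and Atf6 calls were each lost without any 1 of the 3 SM2 animals, and the Derl1 call without NS 10865 or S 10880.

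A wider list of 115 other genes of these pathways had 102 in the table. In S vs C 4 of them were called as higher and 12 as lower (15.7%, against 10.8% of all genes). On total counts the split turned to 12 higher and 6 lower, with sex as a covariate it was 3 and 6, and with 1 animal left out it ranged from 1 to 6 higher and from 5 to 15 lower. The totals were lowest, with 1 higher and 5 lower each, without C 35975, C 36007 or S 36016, and were 3 and 5 without C 36001 and 3 and 6 without S 35982. The 14 genes of the translocon, signal peptidase and COPII coat, through which secreted proteins enter and leave the ER, had 4 lower and 0 higher. These were Sec11c and Spcs1 of the signal peptidase, Ssr4 of the translocon-associated complex and Sec61g of the channel. Ssr4 had 106 to 227 CPM in C and 68.7 to 132 CPM in S, with a log2 fold change of -0.85 ± 0.23 (SE, edgeR adjusted p = 0.05), and the values of Sec11c, Sec61g and Spcs1 were -0.80, -0.74 and -0.58. The Ssr4 call was lost without C 35975, C 36001 or S 36016, those of Sec61g and Spcs1 without 5 and 6 single animals, while that of Sec11c held without any 1 of the 16. With sex as a covariate the calls of Sec11c and Spcs1 were lost, and among males alone those of Sec11c, Spcs1 and Ssr4. Among 15 further ER folding genes 1 was lower, the thiol oxidase Ero1l, which had 14.3 to 21.1 CPM in C and 9.94 ± 1.82 CPM in S (SD, n = 5), without overlap (log2 fold change -0.85 ± 0.16, SE, adjusted p = 0.015). Of 13 further ERAD genes 1 was lower, the ubiquitin-conjugating enzyme Ube2j2 (-0.41). The Ero1l call held without any 1 animal (adjusted p at most 0.0407), while that of Ube2j2 was lost without 11 of the 16. Sex as a covariate and males alone also ended the Ube2j2 call.

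Of 19 genes of the ATF4 programme and the integrated stress response, 2 were higher in S and 1 lower. Eif2ak4 (GCN2), the amino acid sensing kinase, had 14.4 to 20.2 CPM in C and 22.1 to 35.3 CPM in S, without overlap (log2 fold change 0.75 ± 0.17, SE, edgeR adjusted p = 0.0281), and it was called without any 1 animal. Stc2 rested on 49 counts in S 36016, and Eif4ebp1, a brake on cap-dependent translation, had -0.57. Among 11 further ER stress regulators Creb3l1 and Creb3l2 (1.12) were higher and Tmbim6, an ER membrane protein that restrains IRE1, was lower (-0.57). Creb3l1, a factor known in secretory and matrix-forming cells, had 0.555 to 2.03 CPM in C and reached 29.3 CPM in S 36016, the animal with the high stellate cell genes, and the call was lost without that animal, C 35975 or C 36007. Those of Creb3l2, Tmbim6, Eif4ebp1 and Stc2 were lost without 5, 1 (C 36007), 7 and 7 single animals, and Stc2 did not pass the count filter without S 36016. In the cytosolic heat shock list 1 of 20 was lower, Hspb8, a small heat shock protein (159 to 539 CPM in C, 109 to 177 CPM in S, log2 fold change -1.25 ± 0.29, SE, adjusted p = 0.032). The mitochondrial list had 3 of 10 lower, Grpel1 (-0.64), Trap1 (-0.40) and Clpx (-0.39), which act in import, folding and proteolysis. The calls of Hspb8 and Grpel1 held without any 1 animal, and those of Trap1 and Clpx were lost without 11 and 12 of the 16. With sex as a covariate, and among males alone, the calls of Creb3l2, Eif4ebp1, Trap1 and Clpx were also lost.

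By edgeR 0 of the 102 genes were called in NS vs C, and 0 likewise in S vs NS, with the shares of all genes as above. With NS and S together against C 1 was higher (Eif2ak4) and 4 were lower (Ero1l, Tmbim6, Hspb8 and Sec11c), or 4.9% against 2.67% of all genes, and each of these 5 calls was lost without at least 1 animal, that of Ero1l without C 35975 alone and the others without 7 to 13. Between stocks 2 were higher in SM2 and 10 lower (11.8%, against 21.8% of all genes). The higher ones were Vldlr of the ATF4 list (log2 fold change 1.09, edgeR adjusted p = 0.0417) and Htra2 of the mitochondrial list (0.56, adjusted p = 0.0895). The Vldlr call was lost without S 10880 and that of Htra2 without any 1 of the SM2 animals. In the ATF4 list 1 gene was higher and 4 were lower. The lower ones included Asns, the asparagine synthetase and a main ATF4 target, at 0.853 to 1.97 CPM in the 3 SM2 animals and 8.07 to 38.2 CPM in the 13 BW animals (log2 fold change -4.19 ± 0.47, SE, edgeR adjusted p = 1.76e-05), and the serine synthesis enzyme Psat1 (-1.27), and both were called without any 1 of the SM2 animals.

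Markers of other cells were read beside these values. Of the 7 hepatocyte markers, Fgb, Ttr and Ass1 were lower in S and Apoa1 higher, and the summed list reached 47980 to 62210 CPM in C and 40220 to 56180 CPM in S. The neutrophil and monocyte list, of which 4 of 7 genes were tested, summed to 27.0 to 76.0 CPM in C and 4.71 to 24.8 CPM in S, with S100a8 and S100a9 lower. The plasma and B cell list, of which 8 of 9 were tested, summed to 37.0 to 91.1 CPM in C and 27.5 to 67.0 CPM in S. Cd79b was higher in S (log2 fold change 1.83, edgeR adjusted p = 0.0554) but rested on 1 to 21 counts per animal. The median log2 fold change of that list was -0.03. In the stellate cell list Dcn was lower (-1.05, adjusted p = 0.0354) and Col1a1 higher (5.57, adjusted p = 0.0397), the latter with the 2058 CPM of S 36016. The Kupffer cell list (7 of 9) summed to 261 to 560 CPM in C and 145 to 961 CPM in S, overlapping, with 0 of 7 genes called by edgeR. The 12 immediate early genes, which respond to handling and tissue stress, summed to 393 to 1597 CPM in C and 669 to 1510 CPM in S, overlapping, with 1 of 12 called, Dusp1, which was higher. The part of these cell and handling markers in the differences of the 36 genes was not tested.

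Fold changes also differed with gene length. With 11224 genes put into 5 bins of equal size by the genomic span in the RefSeq annotation of another assembly, HU_Pman_BW_mat_3.1, the median log2 fold change in S vs C was -0.05 in the bin of the shortest genes and 0.25 in that of the longest, whereas in NS vs C it was 0 and -0.02. Of the 35 genes matched, 17 were in the shortest bin, among them Sdf2l1 and Creld2, while Dnajc3 was in bin 4. The 2 libraries with the fewest counts, 36016 and 35982, were both in S. Over 16 animals with group means removed, Sdf2l1 and the log2 total count had r = 0.537 (permutation p = 0.0508) and rho = 0.6 (permutation p = 0.0234). For Creld2 r was 0.36 and rho 0.426 (permutation p = 0.13 and 0.0809). For Dnajc3 they were 0.435 and 0.379 (permutation p = 0.141 and 0.193), while Hspa5 and Hsph1 had negative r (-0.112 and -0.191). These were among 10 relations computed for 5 genes, with depth or with the summed immediate early genes. The part of span and depth in the S vs C values was not tested.

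Chaperone levels differed widely between animals of one group, as for Hspa5 in NS, and the question was which genes went together. The log2 CPM of each gene, with the mean of its group removed, was related across the 16 animals to that of Hspa5, and separately to that of Hsph1. For each anchor, every gene was also fitted by edgeR with the anchor as a term beside group and p adjusted over all genes. With Hspa5, 6 of 12638 genes (0.0475%) were called, and 5 of these 6 were among the 35 other UPR and heat shock genes, all with a positive slope. They were Hyou1 (adjusted p = 0.0505), Manf (0.058), Hsph1 (0.069), Dnajb1 (0.0807) and Hsp90b1 (0.0807). The sixth gene, Xpnpep2, had 0 counts in 14 of the 16 animals.

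Of the 10 other ER lumen genes, the 3 called ones, Hyou1, Manf and Hsp90b1, followed Hspa5 closely. Hyou1 (GRP170), the ER nucleotide exchange factor of BiP, had 326 CPM in NS 35937, the animal with the highest Hspa5, and 109 to 154 CPM in the other NS animals. Its range was 109.8 to 215 CPM in C and 109 to 210.4 CPM in S. With Hspa5 it had r = 0.898 (permutation p = 0.00013) and rho = 0.891 (permutation p = 0.0001). Manf had 263 CPM in NS 35937 against 114 to 167 CPM in the other NS animals, with r = 0.879 and rho = 0.856 (permutation p = 4e-05 and 6e-05), and Hsp90b1 had r = 0.881 and rho = 0.888 (permutation p = 2e-05 and 3e-05). Without NS 35937 and C 35975, the animals farthest from the median of Hspa5, r was 0.859, 0.785 and 0.816 for Hyou1, Manf and Hsp90b1, and among the 13 BW animals it was 0.858, 0.842 and 0.847.

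Of the 5 cytosolic genes 2 were called with Hspa5. Between Hspa5 and Hsph1, readouts of different compartments, r was 0.859 and rho 0.835 (permutation p = 0.00012 and 0.0002), 0.753 without the 2 farthest animals and 0.837 in BW. Dnajb1 had 163.8 CPM in NS 35937 and 25.8 to 57.2 CPM in the other NS animals, with r = 0.813 and rho = 0.65 with Hspa5 (permutation p = 0.00115 and 0.0104). That relation was the most dependent on the extreme animals of the 5, with r = 0.61 without them. Among the remaining cytosolic genes r with Hspa5 was 0.832 for Hspa8, 0.236 for Hspb1 and 0.106 for Hsf1. In both responses C 35975, C 10876 and NS 35937 were high, and NS 10865 and S 10880 were low. BW animals were also low in the cytosolic genes. Hsph1 was lower in S 35990 and NS 35987 than in S 10880, and NS 35987 had the lowest Dnajb1 (25.8 CPM) and Hspa8 (1088 CPM) of all animals.

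**Figure D4:**
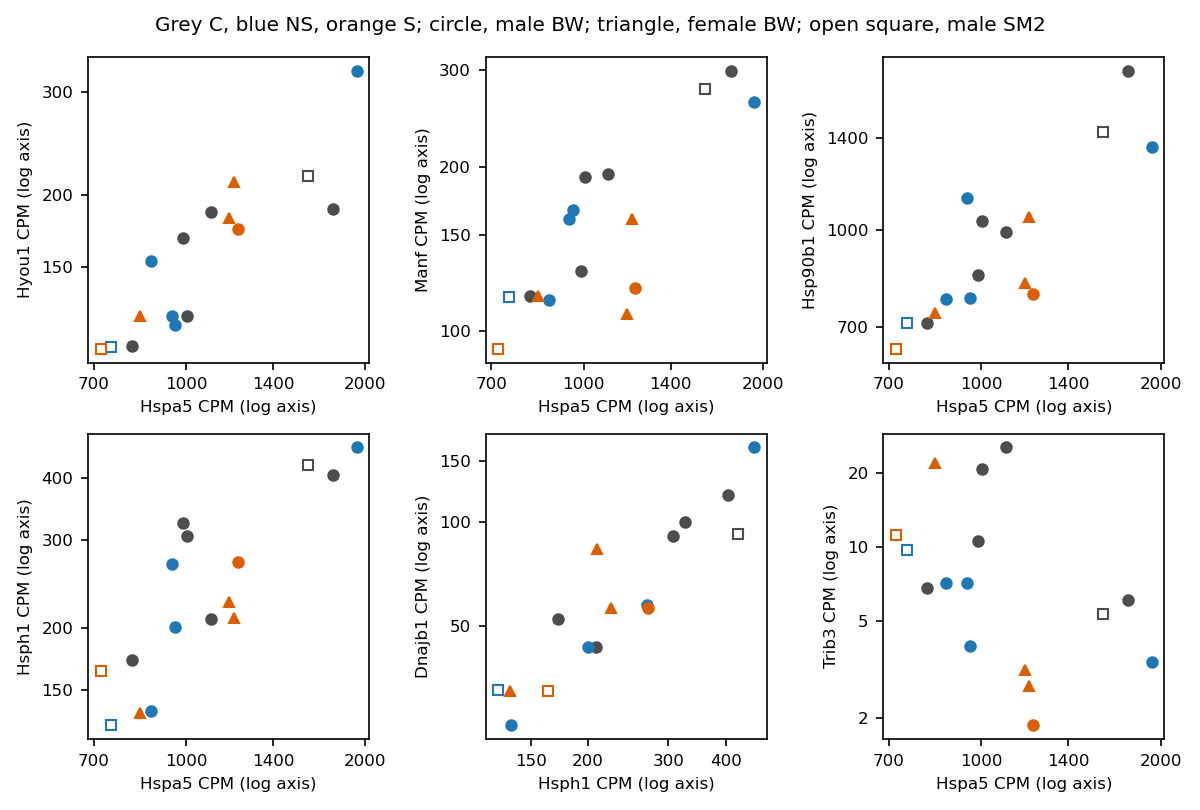
Each point is 1 animal, with CPM of 1 gene against another on log axes, coloured by group and shaped by sex and stock as named in the title. Hyou1, Manf, Hsp90b1 and Hsph1 are higher where Hspa5 is higher, and Dnajb1 where Hsph1 is, while Trib3 has the opposite slope (r = -0.621 with group means removed).

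Across all 35 genes the median r with Hspa5 was 0.411, against -0.02 over all genes tested. The 10 other ER lumen genes had a median of 0.772 and a range of 0.403 to 0.898, and the 5 cytosolic genes a median of 0.813 and a range of 0.106 to 0.859. The 6 sensors and transcription factors lay between -0.157 and 0.178, with Xbp1, Atf6, Ern1 and Eif2ak3 mRNA all within the middle 95% of all genes. In the ERAD group the median was 0.495, with Ero1lb (0.733) and Herpud1 (0.642) highest. The PERK output genes had a median of -0.246, from 0.408 for Ddit3 to -0.621 for Trib3. The upper 2.5% of all genes began at r = 0.52, and 15 of the 35 genes were above it. Sdf2l1 (0.484) and Dnajc3 (0.403), both lower in S, were not among them, whereas Creld2 (0.742) was.

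With Hsph1 as the anchor, 5 of 12638 genes (0.0396%) were called, and 3 of them were UPR or heat shock genes, Dnajb1 (adjusted p = 0.00738), Hspa8 (0.0436) and Hspa5 (0.0965). For Dnajb1 r was 0.905 and rho 0.785 (permutation p = 0.00014 and 0.00088), and for Hspa8 they were 0.908 and 0.918 (permutation p = 4e-05 and 9e-05). Without NS 35937 and C 10876, the animals farthest from the median of Hsph1, r was 0.865 for Dnajb1 and 0.868 for Hspa8. One of the other 2 genes was Chordc1, a cochaperone of HSP90 that is in the wider cytosolic list, with r = 0.921 (adjusted p = 0.0116), and the other was Rnf186, a ubiquitin ligase, with r = -0.865 (adjusted p = 0.0959). Hsf1 mRNA itself had r = 0.112. The median r of the 35 genes was 0.361, against -0.02 over all genes, and 12 were above the upper 2.5% limit of 0.525.

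The calls rested on single animals. With Hspa5, edgeR called 0 of the 35 genes without NS 10865, without NS 35937 or without S 35955, and 0 among BW animals or males alone, while the median r stayed between 0.308 and 0.511 with any 1 animal left out and was 0.349 in BW and 0.508 in males. Leaving out other animals gave between 1 and 6 calls. With Hsph1, 0 genes were called without NS 35937, and Dnajb1 was called without any other 1 animal and in BW and males alone. In all 69 pairs of genes were examined, and the permutation p above are not adjusted. Against sequencing depth the anchors had weak coefficients (r = -0.112 for Hspa5 and -0.191 for Hsph1, permutation p = 0.659 and 0.411), as they had against the summed immediate early genes (r = -0.127 and -0.0293, permutation p = 0.686 and 0.929) over these 16 animals.

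**Figure D5:**
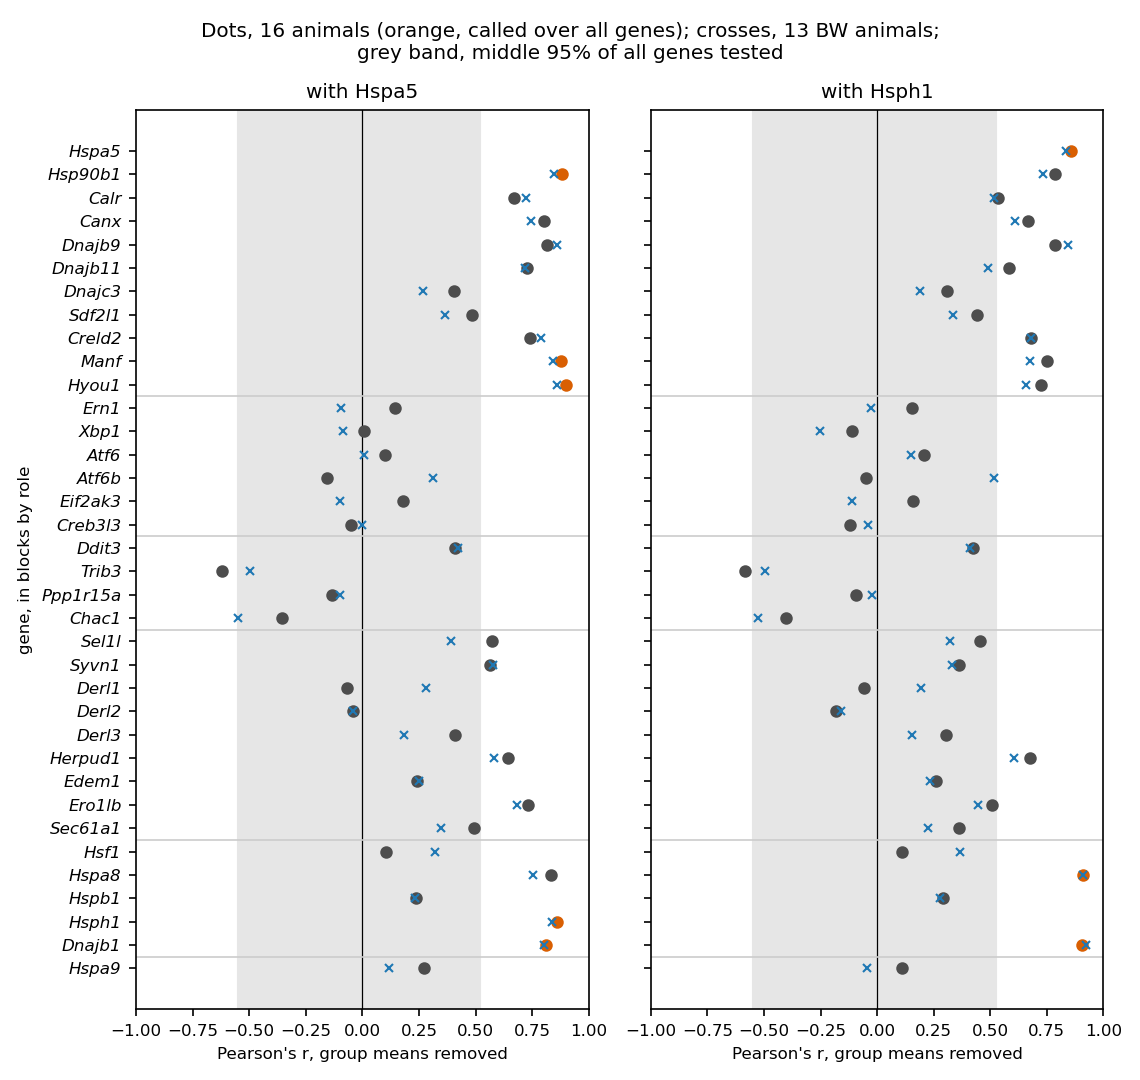
Pearson's r of each gene with Hspa5 (left) and Hsph1 (right) is shown on the horizontal axis after removal of group means, as dots for all 16 animals and crosses for the 13 BW animals, and the grey band holds the middle 95% of all genes tested. Dots right of the band are 15 genes for Hspa5 and 12 for Hsph1, and the sensor block lies inside the band for both.

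The composite correlation Pc asks whether a gene keeps its correlations with the rest of the transcriptome from one group to another. It is Pearson's r, over all other genes, between the gene's correlation coefficients in the 2 groups, so that a value near 1 means retained and a negative value means inverted coordination. It was computed from the counts as deposited, which are not scaled for library size, so that differences in total counts enter the coefficients. The paper does not state the scale it used. Its gene numbers for S vs C (13434) and NS vs C (13340) were those of CPM by total count. Counts gave 13431 and 13336. Neither scale matched its number for S vs NS. By CPM the all-gene median was 0.105 for S vs C and 0.154 for NS vs C, the order of the paper's averages. From counts it was 0.201 and 0.102, the reverse order. The main scale may thus differ from that of the paper. Pc has no test here, since each coefficient rests on 5 or 6 animals. In S vs C the median Pc of the 36 genes was 0.185 against 0.201 over all genes, and in S vs NS it was 0.177 against 0.174. In NS vs C it was 0.0074 against 0.102. Here 3 of the 36 genes lay below -0.2, namely Manf (-0.223), Hsph1 (-0.208) and Hspa5 (-0.202), where 2.92% of all genes did. The ranges of Manf, Hsph1 and Hspa5 with 1 animal left out were -0.228 to -0.0865, -0.23 to -0.043 and -0.225 to -0.0826. On CPM the values were -0.174, -0.105 and -0.142, so that none was below -0.2, and the median was 0.046 against 0.154.

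In S vs C the sign of Pc differed between scales for every ER lumen gene except Canx and Dnajc3. Calr, Dnajb11, Sdf2l1, Creld2 and Hyou1 had 0.268, 0.301, 0.267, 0.215 and 0.0778 from counts. From CPM they had -0.0722, -0.0032, -0.0767, -0.0228 and -0.0966, and with 1 animal left out each of these CPM signs turned. From counts Manf, Dnajb9, Hsp90b1 and Hspa5 had Pc of 0.158, 0.131, 0.14 and 0.0494, and from CPM they had -0.207, -0.184, -0.177 and -0.183. These signs also turned with 1 animal left out, from counts for Hspa5 (-0.121 to 0.203) and Dnajb9 (-0.065 to 0.272), and from CPM for Manf (-0.293 to 0.132), Hsp90b1 (-0.31 to 0.0957) and Hspa5 (-0.232 to 0.036). Canx, Dnajc3 and Hsph1 were positive on both scales, with 0.126, 0.346 and 0.12 from counts and 0.142, 0.12 and 0.0141 from CPM. With 1 animal left out the sign of Canx also turned, from counts (-0.105 to 0.245) and from CPM (-0.0301 to 0.248). That of Hsph1 did so too (-0.00806 to 0.219 and -0.102 to 0.125), whereas Dnajc3 stayed positive (0.246 to 0.342 and 0.0163 to 0.205). Sel1l, the ERAD adaptor, had -0.147 from counts (-0.219 to 0.0913 with 1 left out) and 0.209 from CPM (-0.0264 to 0.338). The median of the 36 genes moved from 0.185 to 0.0169, while that of all genes moved from 0.201 to 0.105.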

How the data were processed

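The authors extracted liver RNA (integrity score at least 8.6), prepared directional libraries, aligned read pairs to HU_Pman_2.1 with STAR 2.7.2 and, with featureCounts and an Ensembl GTF, made the raw counts that they deposited, from uniquely mapped reads and without normalization. The strand setting and the conversion to symbols are not given in the sources used here, so antisense, overlapping and closely related genes (Hspa8, Atf6b) are uncertain. Columns were matched to animals by the animal number.

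The genes, their roles and the pathway and marker lists were chosen with earlier results of these data known. CPM were TMM-normalized. Differential expression was tested with edgeR 4.0.16 (limma 3.58.1, R 4.3.3) and its quasi-likelihood method, with all 16 animals in 1 fit, no covariates, and Benjamini-Hochberg adjustment over 12639 genes, and checked on simulated data. Group and stock entered the stock fit. Calls needed an adjusted p under 0.1, at any fold or at 2-fold. All comparisons with C share its animals. Animals were separate, so p-values reflect the spread between animals.

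Co-variation used log2 CPM (prior count 2) and 100000 permutations within groups. It was planned to adjust these p over the gene pairs, but an edgeR fit with adjustment over all genes, chosen after seeing the data, was used instead. Pc, permutations and figures used Python 3.11.15, numpy 2.4.6, pandas 2.3.3 and scipy 1.17.1.

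Genes named individually were those called in a group comparison, the readouts Hspa5, Xbp1, Ddit3, Dnajb9, Herpud1, Creb3l3 and Hsph1, the 3 smallest unadjusted p where none was called, and at most 3 called genes per pathway list and direction, to which Spcs1 and the values of other members were added after seeing them. Alternatives were DESeq2 1.42.0, other scaling and filters, sex or stock as covariates, subsets of animals, and each animal left out. For the wider pathway genes these were read out after seeing the data.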

Additional observations from a re-analysis of the deposited data

Results flagged for a closer look

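Among 108 combinations of gene and group examined, 2 held an animal far from the others of its group by Dixon's test at its 95% limit, and chance alone flags about 1 in 20. Hspa5 was 1933 CPM in NS 35937, where the other NS animals had 749.7 to 959 CPM. Atf6, the ER sensor, was 39.2 CPM in NS 10865, the SM2 animal of that group, where the others had 58.3 to 62.0 CPM.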

How the results depend on the processing

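No paired analysis was possible because the labels number no replicates across groups. For HFD vs C a fit of only the groups compared is the fit reported and was not run again. Sdf2l1 stayed below an adjusted p of 0.1 in S vs C under every alternative run. The genes called in S vs C, 3 as reported, were 6 with DESeq2, 5 with stock as a covariate, 5 with only S and C fitted and 1 to 6 with 1 animal left out. At 2-fold the count, 0 as reported, was 1 with DESeq2, with sex as a covariate, in BW animals alone and in males alone, and 0 to 2 with 1 animal left out. In S vs NS sex as a covariate gave 1 gene at either rule, and leaving out animals gave 0. In HFD vs C, 1 as reported, the count was 0 at an adjusted p of 0.05 and in BW animals alone, 2 with RLE factors, with at least 1 CPM in 5 animals, with sex as a covariate and in males alone, 3 with DESeq2 and with stock as a covariate, and 0 to 3 with 1 animal left out. In SM2 vs BW it was 0 to 5 without 1 SM2 animal. Without scaling factors the median of all genes in S vs C moved from 0.10 to 0.33, Hspa5 and Creb3l3 had log2 fold changes of 0.0173 and 0.0159, and the Dnajc3 call was lost (adjusted p = 0.125). The median Pc in S vs C was 0.0169 on CPM, 0.0531 on TMM-normalized CPM and 0.132 to 0.246 with 1 animal left out from counts. In NS vs C it was 0.046, 0.02 and -0.0895 to 0.0582 in the same order. In S vs NS it was 0.244 on CPM and 0.251 on TMM-normalized CPM, against 0.166 and 0.181 over all genes. From counts with 1 animal left out, the S vs NS median ranged from 0.0472 to 0.217. Co-variation with Hspa5 called 0 genes in BW animals or males alone and 0 to 6 with 1 animal left out, with a median r of 0.308 to 0.511. With Hsph1 it called 1 in BW animals and 0 to 3 with 1 left out, with a median r of 0.478 in males and 0.314 to 0.428 with 1 left out.

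Counts per animal were as low as 4 for Hspb1 and 0 for Chac1, which limits the precision of their lowest values. Sex and steatosis cannot be told apart in females, and the 9 genes without a row were not analysed here.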
